A study of Rattus norvegicus with 4 samples.

Results

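The unfolded protein response and endoplasmic reticulum (ER) secretion module brings together 40 genes, listed under 42 names, that fold, modify, move and quality-check proteins in the ER or report a load of unfolded protein there. Its members were taken as gene probes that carry 1 of these names and were well above background on at least 2 of 4 arrays. The rule found 36 probes of 28 genes among 28444 probes that passed the same background rule. All 36 were well above background on all 4 arrays, and 35 probes of 27 genes could be fitted. In the small intestine of rats given compost extract, 20 of the 22 measured ER chaperone and secretory genes had a higher mean than in control rats, with a median of 1.15-fold, and 2 had a lower mean. The 4 genes of the PERK-ATF4-CHOP branch were split, with 2 higher and 2 lower. No member passed limma's test, so these are differences of means and not calls.

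Control rats drank tap water and compost rats drank tap water holding 1% (v/v) compost extract, a heated watery dilution of fermented compost. All were male Wistar rats, an outbred stock, that were 3 weeks old when the 12 weeks of drinking began. Small intestine without Peyer's patches, the lymphoid follicle clusters of the gut wall, was taken from 2 rats of each group, and each rat's RNA was hybridised to 1 one-colour array. The labels do not name the segment of the intestine.

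The ER is where secreted and membrane proteins enter the secretory route, and a large share of the output of goblet, Paneth and plasma cells passes through it. When unfolded protein builds up there, ATF6, IRE1 (the product of Ern1) and PERK (the product of Eif2ak3) signal from its membrane. ATF6 and the spliced form of XBP1 made through IRE1 switch on genes for chaperones, disulfide isomerases, translocation and degradation. PERK slows protein synthesis and favours translation of ATF4, which switches on genes of amino acid supply and, with prolonged load, Ddit3, the gene of CHOP, and Trib3.

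Signals are given as log2 intensity minus the 75th percentile of the same array, so that 0 is that percentile, and each difference is the compost mean minus the control mean with its standard error from limma. The median spot intensity was 80.8 to 113 across the arrays, 66.5% to 71.0% of gene spots were well above background, and Pearson's r between arrays was 0.981 to 0.988 over 28415 probes. All 4 arrays lay on 1 slide which had control samples in positions 1 and 2 and compost samples in 3 and 4, so position and group cannot be told apart. All 8 measured markers of intestinal epithelium were well above background on all 4 arrays. The replicates are separate rats per the labels, and 2 against 2 cannot give an exact two-sided permutation p below 0.333. In such bulk tissue, fewer cells of a type and less RNA per cell cannot be told apart.

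Over all probes, limma's test with Benjamini-Hochberg adjustment called none of 28415 at an adjusted p under 0.05 (0%), and 3.31% of 24299 genes or transcripts had an unadjusted p under 0.05. None of the 27 members had an unadjusted p under 0.05. The lowest was 0.0589 for Hyou1, with an adjusted p of 1.00 in limma's test. Both compost arrays lay above both control arrays for 11 of 27 members, where 12.6% of all genes did so, and all 11 were chaperone or secretory genes. Both compost arrays lay below both control arrays for 1 member, Trib3, where 15.3% of all genes did so. The median difference was 0.14 over the 27 members and -0.020 over all genes, of which 11210 were higher and 13089 lower. Without compost replicate 1 the count of members above control was 19, under a criterion that then had 1 compost array fewer to meet. The share of all genes under that criterion is not given here, so 19 cannot be set beside 12.6%. Since the members were chosen with earlier results of these arrays known, the count of 11 describes these 4 rats.

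**Figure D1:**
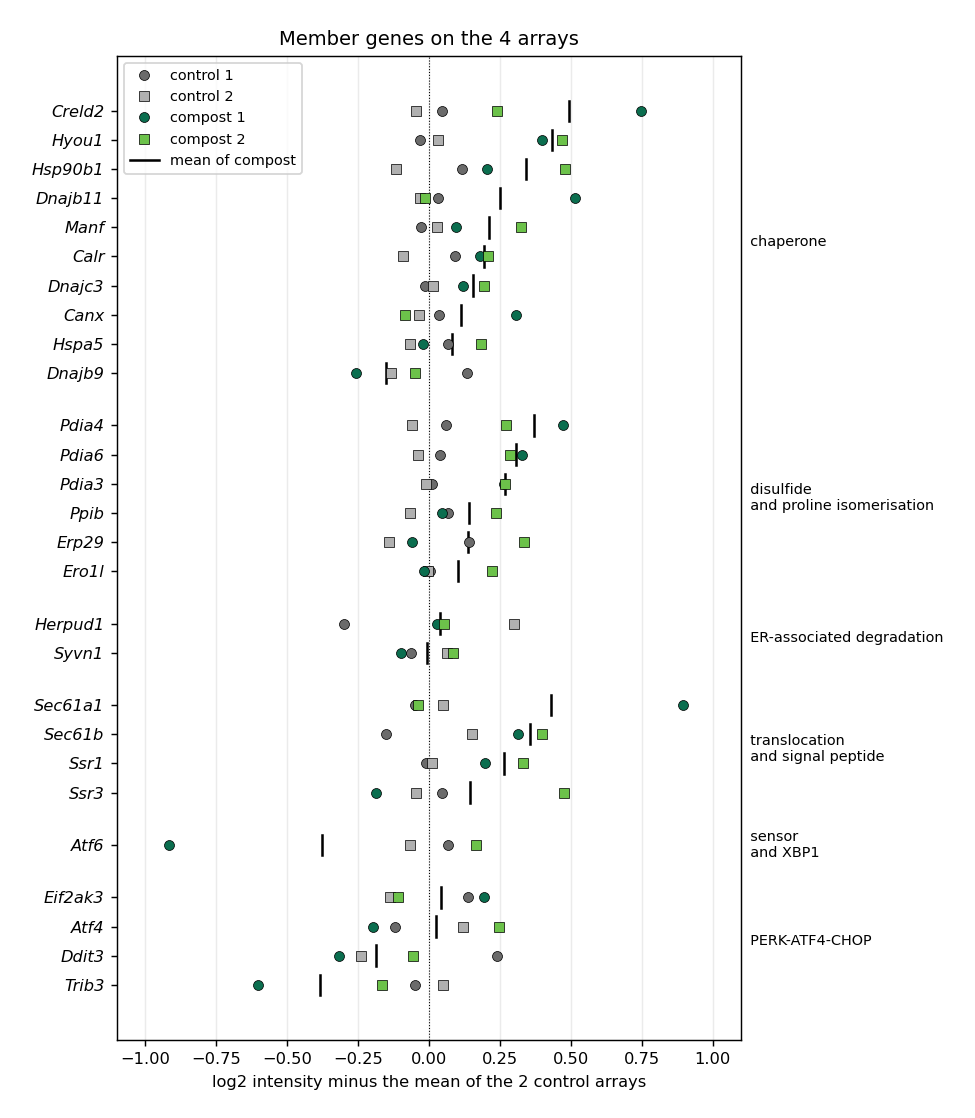
Log2 intensity of the 27 fitted member genes on the 4 arrays, each minus the mean of the 2 control arrays, on the horizontal axis. Circles and squares are single rats and the black bar is the mean of the 2 compost rats. Most chaperone, isomerase and translocation genes have bars to the right of 0, up to 0.49 for Creld2, while Trib3, Ddit3 and Atf6 have bars to the left.

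The 10 measured chaperone genes had a median difference of 0.20, with 9 higher. Of the 10, 6 lay above control without overlap, where 12.6% of all genes did so. Hyou1 encodes a large ER relative of the Hsp70-type chaperones that helps Hspa5 exchange nucleotide. Its log2 signal was 4.19 and 4.25 in the control rats and 4.62 and 4.69 in the compost rats. The groups lay apart by more than either pair of rats differed, and Hyou1 was the only member with a gap of at least 0.3 between them (0.37). The difference was 0.43 ± 0.17 (SE, n = 2 rats per group; 95% interval -0.025 to 0.89; limma, adjusted p = 1.00), and a second, dimmer probe gave 0.40 ± 0.21.

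Creld2, which encodes a secreted ER protein with disulfide isomerase activity, had the largest difference of all members over the 4 rats, though it ranged from 0.24 to 0.75 with 1 rat left out, where Hyou1 ranged from 0.40 to 0.47. It stood at 2.25 and 2.16 in control rats and at 2.95 and 2.45 in compost rats, a difference of 0.49 ± 0.24 (95% interval -0.14 to 1.13). The compost rats differed from each other by more than compost 2 differed from control 1. Hsp90b1, named Tra1 on the array and known as GRP94, is the Hsp90-type chaperone of the ER. Its signal was 4.88 and 4.65 in control and 4.97 and 5.25 in compost rats, a difference of 0.34 ± 0.21, and its second probe gave 0.29 ± 0.19. The 2 groups did not overlap on either probe.

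Hspa5 encodes BiP, the Hsp70-type chaperone of the ER that also holds the stress sensors inactive. Its values were 6.62 and 6.48 in control and 6.53 and 6.73 in compost rats. The groups overlapped, and the difference was 0.081 ± 0.19 (95% interval -0.42 to 0.58). Manf, named Armet on the array, encodes a secreted ER stress protein. It measured 4.73 and 4.79 in control and 4.86 and 5.09 in compost rats, a difference of 0.21 ± 0.19. Neither control rat reached the lower compost rat, and its second probe gave 0.19.

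Calr and Dnajc3 did not overlap between the groups either, with differences of 0.19 ± 0.18 and 0.16 ± 0.17. Calr encodes calreticulin and Canx calnexin, the lectins that hold newly made glycoproteins, and Dnajc3 encodes a co-chaperone of Hspa5. Canx (0.11 ± 0.22) and Dnajb11 (0.25 ± 0.25), another co-chaperone gene, were higher on average through compost 1 alone. For both, compost 2 lay within or below the control values. Dnajb9, whose product is the co-chaperone ERdj4, was the only chaperone with a lower mean (-0.15 ± 0.20), and its second probe gave -0.12.

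The 6 measured genes of disulfide and proline isomerisation all had higher means in compost rats, with a median difference of 0.20. Of the 6, 3 lay above control without overlap, where 12.6% of all genes did so. Pdia4, Pdia6 and Pdia3 encode protein disulfide isomerases, which form and rearrange disulfide bonds. Pdia4 measured 1.38 and 1.26 in control and 1.79 and 1.59 in compost rats, a difference of 0.37 ± 0.19 (95% interval -0.12 to 0.87). Pdia6 measured 6.01 and 5.93 in control and 6.29 and 6.25 in compost rats, a difference of 0.31 ± 0.17. Pdia3 measured 3.45 and 3.43 in control and 3.70 and 3.70 in compost rats, a difference of 0.27 ± 0.17. In all 3 genes the rats of a group lay closer to each other than to the other group.

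Ppib, the gene of the ER proline isomerase cyclophilin B, measured 6.06 and 5.93 in control and 6.04 and 6.23 in compost rats. Its groups overlapped, with a difference of 0.14 ± 0.19. Erp29 (0.14 ± 0.23) and Ero1l (0.10 ± 0.19) also overlapped, and in both only compost 2 lay above the controls on the probe used. On a second, dimmer probe of Ero1l (0.085 ± 0.29), compost 1 lay above the controls and compost 2 below them. Ero1l encodes the oxidase that recharges the disulfide isomerases. P4hb, which encodes the founding protein disulfide isomerase, was not fitted because its spot on control 2 was an outlier. With that spot kept, P4hb measured 7.27 and 7.02 in control and 6.78 and 7.03 in compost rats, a difference of -0.24 ± 0.21, which ran opposite to the other isomerases.

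Genes of translocation and signal peptide handling, 4 in number, had a median difference of 0.31, the highest of the role groups. Sec61b and Sec61a1 encode subunits of the channel through which new proteins enter the ER. Sec61b measured 4.79 and 5.09 in control and 5.25 and 5.34 in compost rats, a difference of 0.36 ± 0.20, with no overlap. Sec61a1 measured -1.34 and -1.24 in control and -0.40 and -1.33 in compost rats. Its difference of 0.43 ± 0.35 came from compost 1, and without that rat it was -0.038.

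Ssr1 and Ssr3 encode subunits of the translocon-associated protein complex. Ssr1 measured 2.33 and 2.35 in control and 2.53 and 2.67 in compost rats, a difference of 0.26 ± 0.18, with no overlap. Ssr3 measured 4.01 and 3.92 in control and 3.78 and 4.44 in compost rats, a difference of 0.14 ± 0.28. The compost rats lay on either side of the controls for Ssr3, and its second probe gave 0.014 ± 0.19.

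Only 2 genes of ER-associated degradation, the removal of misfolded protein through the proteasome, could be measured under their own names, and their median difference was 0.016. Herpud1 encodes a scaffold of the degradation complex. It measured 3.88 and 4.48 in control and 4.20 and 4.23 in compost rats, so both compost rats lay between the controls, with a difference of 0.039 ± 0.26. Syvn1 encodes the ubiquitin ligase HRD1. It measured 3.76 and 3.88 in control and 3.72 and 3.90 in compost rats, a difference of -0.0073 ± 0.19. The second probes disagreed in sign with the first for both genes, at -0.0054 for Herpud1 and 0.26 ± 0.22 for Syvn1, and these were the only such cases among the 8 members with more than 1 fitted probe.

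Of the stress sensors, Atf6 was measured under its own name. Its signal was 1.46 and 1.33 in control and 0.48 and 1.56 in compost rats. Compost 1 was the lowest and compost 2 the highest of the 4, and the difference of -0.38 ± 0.40 became 0.16 without compost 1.

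The PERK-ATF4-CHOP members had a median difference of -0.082, against 0.20 for the 22 chaperone and secretory genes, which leaves 0.28 between the medians. Trib3, a pseudokinase gene switched on by ATF4 and CHOP, measured 3.73 and 3.82 in control and 3.17 and 3.61 in compost rats. It was the only member with both compost rats below both controls, by -0.38 ± 0.23 (95% interval -0.98 to 0.21; limma, adjusted p = 1.00). With 1 rat left out, the difference of Trib3 ranged from -0.60 to -0.16. Ddit3 measured 0.44 and -0.041 in control and -0.12 and 0.14 in compost rats, a difference of -0.19 ± 0.25. The order of its rats did not follow the groups.

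Atf4 measured 5.45 and 5.69 in control and 5.38 and 5.82 in compost rats, with the compost rats outside the controls on both sides and a difference of 0.025 ± 0.24 (95% interval -0.60 to 0.65). ATF4 and PERK are controlled mainly at the level of protein, which arrays do not measure. Eif2ak3 measured -0.81 and -1.08 in control and -0.75 and -1.05 in compost rats, a difference of 0.042 ± 0.22. Each group had 1 high and 1 low rat.

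On the separate arrays, the median deviation of the 22 chaperone and secretory genes from their own 4-array means was -0.093 and -0.13 in control rats and 0.053 and 0.13 in compost rats, so the groups did not overlap. For the 4 PERK-ATF4-CHOP members it was 0.13 and -0.019 in control and -0.22 and 0.032 in compost rats, which did overlap. The median of these 4 genes was -0.26 without compost replicate 2, -0.22 when control replicate 2 was left out and -0.022 when control replicate 1 was. The difference between the medians was then 0.45, 0.44 and 0.25. With Herpud1 and Ero1l, which ATF4 or CHOP are also known to switch on, counted in the PERK branch, its median was 0.032 and the difference between the medians 0.20.

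**Figure D2:**
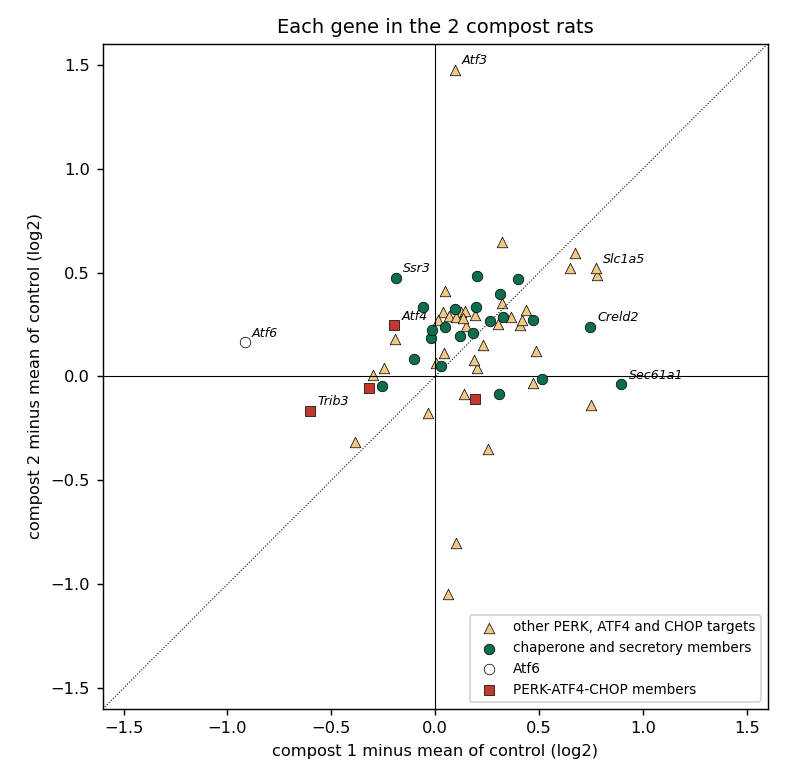
Difference of compost 1 (horizontal axis) and compost 2 (vertical axis) from the mean of the 2 control rats, in log2 units, for the chaperone and secretory members (green circles), the 4 PERK-ATF4-CHOP members (red squares), Atf6 (open circle) and other targets of the PERK branch (yellow triangles). The dotted line marks equal differences. Trib3 lies below 0 in both rats, further in compost 1 than in compost 2. Of the 27 members 11, 8 of them chaperone and secretory genes, have opposite signs in the 2 rats.

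The rats of a group differed from each other about as much as the groups did. The median absolute difference between the compost rats was 0.23 over the 27 members, and between the control rats 0.12, where all genes had 0.31 and 0.19. The median size of the members' group difference was 0.19. On the brightest probe of each gene, compost 2 was the highest array for 16 members, among them 14 chaperone and secretory genes. Compost 1 was the highest for 7: Canx, Creld2, Dnajb11, Pdia4, Pdia6, Sec61a1 and Eif2ak3. Control 1 was the highest for Dnajb9 and Ddit3, and control 2 for Herpud1 and Trib3. The order of the compost arrays was reversed on a second, dimmer probe for Hyou1, Hsp90b1, Ssr3, Ero1l, Herpud1 and Dnajb9. In compost rats Hyou1 measured 4.62 and 4.69 on its brighter probe and -2.93 and -3.28 on the dimmer one. Manf and Syvn1 had compost 2 higher on both probes. The median spot intensity was 113 on compost 1 and 80.8 on compost 2, and its part in this order was not tested.

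Promoter sequences were examined for the elements through which these branches are known to act. The ER stress response element (ERSE, CCAAT and CCACG with 9 bases of any letter between them) and its shorter relative ERSE-II (ATTGG and CCACG with 1 base of any letter between them) are known binding sites of ATF6 and XBP1 with the general factor NF-Y, the element UPRE (TGACGTGG) of XBP1 and ATF6, and the core of the C/EBP-ATF response element (CARE core, TGATGNAA) of ATF4. RefSeq windows of 300 bases, from 250 before to 50 after the annotated start, were held for 32 of the 40 members, in the GRCr8 build. Only exact matches to these letters were counted, so a window without a match may still hold a variant of an element. ERSE was found on either strand in 9 of the 32 (28.1%), against 21 of 27457 genes with a window (0.0765%). ERSE-II was found in 3 members (9.38%), Dnajb11, Herpud1 and Hyou1, against 17 genes (0.0619%). ERSE was defined on promoters of this kind, Hspa5 and Hsp90b1 among them, so its share among the members is no independent finding.

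Of the PERK-ATF4-CHOP members, Eif2ak3, Atf4, Ddit3 and Trib3, 0 of 4 held ERSE or ERSE-II in these windows. The CARE core was found in 2 of the 32 members (6.25%), Herpud1 and Trib3, against 4.16% of all genes. UPRE was found in 1 member, Hyou1, where it overlaps an ERSE-II match, against 0.681% of all genes. The 6 windows below were chosen to set the chaperones named above beside a degradation gene with both kinds of element and the PERK branch gene that lay below control. Each is printed 5′ to 3′ along the gene's strand, in lower case with the motif matches in capitals: Hspa5 at chr3:38452766-38453065 (plus strand), Hsp90b1 at chr7:23012244-23012543 (minus), Hyou1 at chr8:53602632-53602931 (plus), Creld2 at chr7:121789134-121789433 (plus), Herpud1 at chr19:10614658-10614957 (minus) and Trib3 at chr3:161275484-161275783 (minus).
Hspa5: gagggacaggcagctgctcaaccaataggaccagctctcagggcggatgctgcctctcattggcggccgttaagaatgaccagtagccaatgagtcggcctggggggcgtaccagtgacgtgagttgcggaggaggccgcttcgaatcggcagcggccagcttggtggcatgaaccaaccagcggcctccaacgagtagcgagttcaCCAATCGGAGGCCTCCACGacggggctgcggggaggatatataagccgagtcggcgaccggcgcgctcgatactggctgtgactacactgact
Hsp90b1: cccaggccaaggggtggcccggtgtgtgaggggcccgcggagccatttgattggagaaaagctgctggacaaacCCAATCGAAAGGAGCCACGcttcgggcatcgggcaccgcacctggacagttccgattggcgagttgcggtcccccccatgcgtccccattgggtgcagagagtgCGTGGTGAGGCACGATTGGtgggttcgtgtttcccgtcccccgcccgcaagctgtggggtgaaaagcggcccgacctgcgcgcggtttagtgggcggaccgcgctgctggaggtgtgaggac
Hyou1: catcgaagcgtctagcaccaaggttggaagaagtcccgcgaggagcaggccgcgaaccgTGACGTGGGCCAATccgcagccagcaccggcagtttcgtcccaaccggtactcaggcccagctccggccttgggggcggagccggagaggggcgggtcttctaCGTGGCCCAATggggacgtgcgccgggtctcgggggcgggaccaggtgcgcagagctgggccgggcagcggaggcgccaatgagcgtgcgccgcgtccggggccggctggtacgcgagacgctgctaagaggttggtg
Creld2: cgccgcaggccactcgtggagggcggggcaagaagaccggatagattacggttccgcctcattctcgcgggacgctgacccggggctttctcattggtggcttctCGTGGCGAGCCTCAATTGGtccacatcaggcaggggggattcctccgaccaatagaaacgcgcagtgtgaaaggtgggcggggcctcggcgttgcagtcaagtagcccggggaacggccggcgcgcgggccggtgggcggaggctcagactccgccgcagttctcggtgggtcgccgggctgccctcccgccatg
Herpud1: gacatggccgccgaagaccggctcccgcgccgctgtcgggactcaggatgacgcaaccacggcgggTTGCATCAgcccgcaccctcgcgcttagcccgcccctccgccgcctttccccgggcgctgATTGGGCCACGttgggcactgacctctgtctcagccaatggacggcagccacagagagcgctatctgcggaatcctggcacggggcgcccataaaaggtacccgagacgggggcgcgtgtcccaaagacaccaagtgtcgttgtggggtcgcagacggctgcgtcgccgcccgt
Trib3: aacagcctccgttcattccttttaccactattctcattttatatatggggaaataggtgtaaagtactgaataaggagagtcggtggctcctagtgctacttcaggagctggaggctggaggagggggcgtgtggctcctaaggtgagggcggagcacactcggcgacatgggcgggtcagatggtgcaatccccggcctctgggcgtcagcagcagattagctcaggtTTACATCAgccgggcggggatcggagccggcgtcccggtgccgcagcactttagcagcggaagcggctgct
The exact ERSE match of Hspa5 ran from base -43 to base -25, counting the annotated start as 0. Hsp90b1 held an ERSE at -176 to -158 and another, on the opposite strand, at -72 to -54. In Hyou1 the UPRE match ran from -191 to -184 and the ERSE-II matches from -188 to -178 and from -88 to -78, all within the first of its 2 annotated windows. Creld2 held an ERSE on the opposite strand at -145 to -127. Herpud1 paired an ERSE-II match at -124 to -114 with a CARE core at -184 to -177, and Trib3 held a CARE core at -21 to -14.

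**Figure D3:**
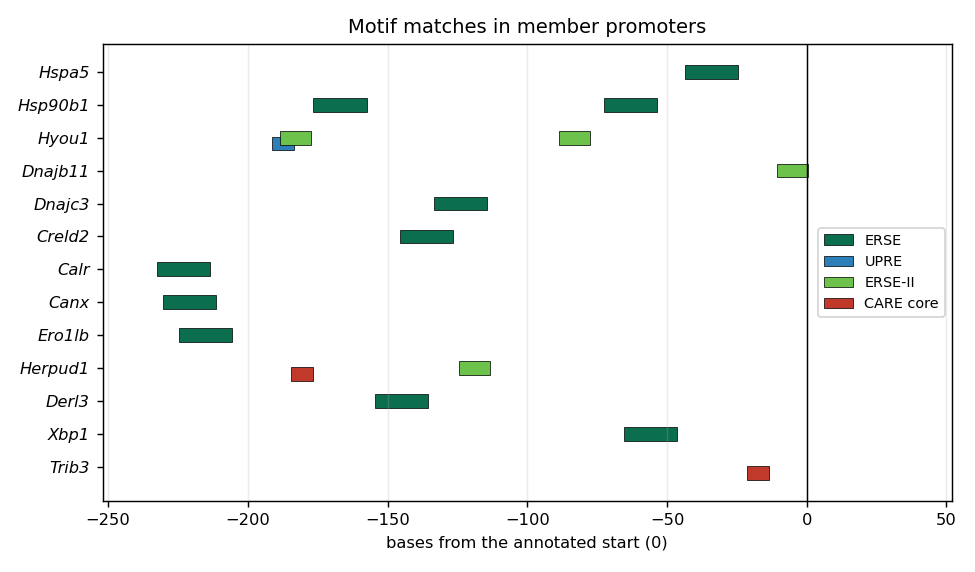
Positions of motif matches in the promoter windows of the 13 members that hold any, in bases from the annotated start (0, black line), coloured by motif. ERSE and ERSE-II matches lie upstream of the start, from the ERSE of Calr at -232 to the ERSE-II of Dnajb11, which ends at 0; Herpud1 and Trib3 carry the CARE core matches.

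Members with and without an element were counted with those found under other names, given in the next paragraph. Of 10 fitted chaperone and secretory members with ERSE or ERSE-II, 9 had a higher mean in compost rats and 1, Ero1lb, a lower one, with 5 not overlapping and a median difference of 0.17. Of 11 whose window held neither, 9 were higher and 2, Dnajb9 and Syvn1, lower, with 6 not overlapping and a median of 0.14. All of these non-overlapping genes lay above control, where 12.6% of all genes did so. The ranges were -0.053 to 0.49 with an element and -0.15 to 0.40 without, so they overlapped widely, and the difference between these sets was not tested.

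A further 12 members had no probe under their own names. Older names in RefSeq led to probes of 6 of them, and all 6 were well above background. Sec11c, a signal peptidase subunit gene, measured 4.44 and 4.56 in control and 4.97 and 4.83 in compost rats, a difference of 0.40 ± 0.18 (95% interval -0.080 to 0.88; limma, adjusted p = 1.00). Edem1, which marks misfolded glycoproteins for removal, measured 4.61 and 4.51 in control and 4.71 and 4.85 in compost rats, a difference of 0.22 ± 0.18. Its other probes gave 0.042 ± 0.26, with the groups overlapping, and 0.26 ± 0.18, without overlap. Derl1 (0.17 ± 0.17) and Sel1l (0.11 ± 0.18), channel and adaptor genes of ER-associated degradation, did not overlap between the groups, and neither did Sec11c.

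Ern1, the gene of the sensor IRE1, measured 0.95 and 1.02 in control and 0.97 and 1.02 in compost rats, a difference of 0.012 ± 0.17. Ero1lb, a second oxidase gene, gave -0.053 ± 0.37. Of these 6 genes 4 lay above control, where 12.6% of all genes did so, and with them the chaperone and secretory median was 0.19. Xbp1, Sdf2l1, Derl2, Derl3, Txndc5 and Spcs1 were not analysed here.

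Other genes of the same pathways were read from lists that hold no member. Of 70 other targets of XBP1 and ATF6 and secretory machinery genes, 54 were higher and 16 lower, with a median difference of 0.12. Above control lay 29 (41.4%) and below it 2 (2.86%), where 12.6% and 15.3% of all genes did so. In this list 0 passed limma's test. Fkbp11, an ER proline isomerase gene, measured 0.78 and 0.71 in control and 1.41 and 1.07 in compost rats, a difference of 0.50 ± 0.21. Fkbp7, another of that family, measured -1.34 and -1.17 in control and -0.29 and -1.04 in compost rats, a difference of 0.59 ± 0.31 that was 0.21 without compost 1. Nucb2 measured 1.28 and 1.46 in control and 2.30 and 1.41 in compost rats, a difference of 0.49 ± 0.34 that was 0.040 without compost 1. Both therefore rested largely on that rat. Uggt1, which re-tags unfolded glycoproteins, gave 0.28 ± 0.19. The lowest p among those lower in compost belonged to Mcfd2 (-0.30 ± 0.20) and Sar1b (-0.27 ± 0.20), both genes of transport from the ER to the Golgi.

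Of 40 other targets of PERK, ATF4 and CHOP 32 were higher and 8 lower, with a median difference of 0.21. Above control lay 19 (47.5%) and below it 1 (2.5%), where 12.6% and 15.3% of all genes did so. After adjustment 0 passed limma's test. An unadjusted p under 0.05 was found for 2, where 3.31% of all genes had one. Slc1a5, a neutral amino acid transporter gene, measured 1.43 and 1.64 in control and 2.31 and 2.06 in compost rats, a difference of 0.65 ± 0.20. Phgdh, the first enzyme of serine synthesis, measured 2.40 and 2.67 in control and 3.18 and 3.06 in compost rats, a difference of 0.59 ± 0.20. Cebpd gave 0.63 ± 0.26 and Slc7a5, another amino acid transporter gene, 0.49 ± 0.23, while Cth, an enzyme of cysteine synthesis, gave -0.35 ± 0.18.

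The median of this list rested in part on control 1, the lowest array. Its median deviations were -0.24 and 0.022 in control and 0.100 and 0.13 in compost rats, and leaving out control replicate 1 gave a median difference of 0.10, leaving out control replicate 2 one of 0.32. The difference between this list and the 4 PERK-ATF4-CHOP members was not tested. Of 22 cytosolic heat shock genes, 18 were higher and 4 lower, and the median difference was 0.077. Above control lay 5 (22.7%) and below it 1 (4.55%), where 12.6% and 15.3% of all genes did so.

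Several secretory cell types carry a high level of the members, so their markers were read on the same arrays. Of 11 measured B and plasma cell markers, 10 lay above control, where 12.6% of all genes did so. Their median difference was 1.25 over the 11 (0.52 with normexp background correction). Ms4a1 was not well above background in control rats, and Sdc1, which the epithelium also expresses, differed by -0.0087. The summed linear signal, in units of the array's 75th percentile, was 212 and 261 in control rats. It was 231 and 254 in compost rats, so the groups overlapped. Without Sdc1, the brightest marker, the sum was 4.78 and 6.75 in control and 17.0 and 10.4 in compost rats. Without Sdc1 both compost rats exceeded both controls, and the sum was highest in compost 1. The part of these cells in the members' differences was not tested.

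All 9 measured goblet cell markers were well above background on all 4 arrays, with a median difference of 0.11 and sums of 1192 and 969 in control and 1184 and 1188 in compost rats. The 7 measured Paneth cell markers, Defa5 not being well above background, had a median of 0.22, with sums of 979 and 1339 against 1277 and 1169. All 13 absorptive enterocyte markers had lower means in compost rats, with a median of -0.46 and sums of 2474 and 1970 against 1355 and 1762, and Lct and Alpi were not well above background there. Of 20 pancreatic acinar markers, a check for attached pancreas, 12 were measured with sums of 15.8 and 14.7 against 15.6 and 17.9, or 8.07 and 8.06 against 6.84 and 7.70 without the brightest, Spink1. Prss1 lay above control, at -5.71 and -4.00 in control and -2.77 and -2.77 in compost rats and well above background on 1 of the 2 control arrays, while Cpa1, Cpb1, Pnlip and Clps were not well above background. The part of these cell types in the members' differences was not tested.

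**Figure D4:**
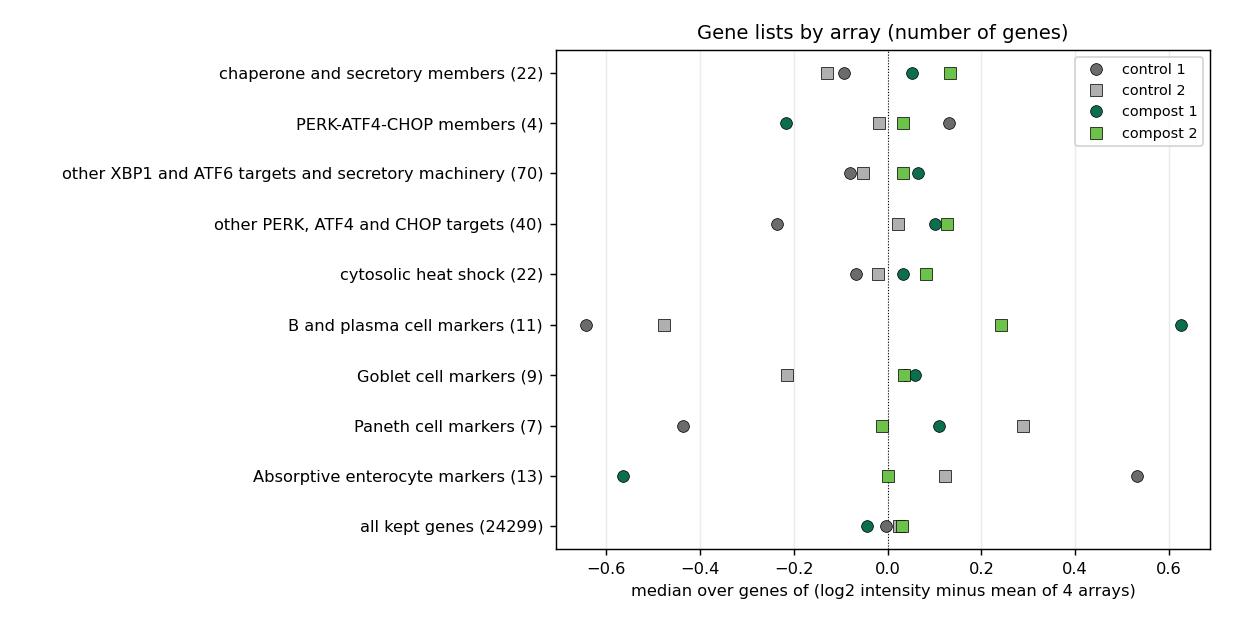
Median over the genes of each list (number of genes in brackets) of the log2 intensity minus the gene's mean over the 4 arrays, for each array. Circles and squares are single rats. The chaperone and secretory members separate the groups, from -0.13 to 0.13, as do the other XBP1 and ATF6 targets, the other PERK targets and cytosolic heat shock genes. The B and plasma cell and enterocyte markers separate them too, over wider ranges, with the enterocyte markers lower in compost rats. The 4 PERK-ATF4-CHOP members and the goblet and Paneth cell markers do not.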

How the data were processed

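RNA of 4 rat small intestines was read on one-colour (Cy3) Agilent arrays, per the labels. The deposited scanner files held the processed intensity of each spot (Agilent Feature Extraction 9.1.3.1), background-subtracted on a linear scale per the file headers, with flags for signal well above background and for outlier spots. The value table deposited by the authors gave that intensity in rounded form, within 0.497% of the scanner value. Of 43379 gene spots, outlier spots were left out, which left 31 probes with a missing value. The log2 intensity was averaged per probe (41012 probes) and the array's 75th percentile was subtracted. Fitted were the 28415 probes with a value on all 4 arrays and signal well above background on 2 or more of them. Compost was compared with control by lmFit and eBayes of limma 3.58.1 in R 4.3.3, with two-sided p-values adjusted over all fitted probes after Benjamini and Hochberg and a threshold of 0.05. A gene took its brightest fitted probe. The code was checked on simulated data.

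Members were matched by the name in the files. For other genes, names were updated through a GRCr8 gene table: 10835 probes by accession, 5201 by symbol, 3488 by synonym and 974 by gene ID, while 20514 kept the file's name. The members and lists were chosen with earlier results of these data known. Array values are given for Hspa5, the sensors and the PERK branch, for up to 4 members of each role with the smallest p, and for members with groups at least 0.3 apart. Of each related list up to 4 genes with the smallest p in each direction could be named. Replicate numbers were not taken to pair the rats, since the labels do not say that they do. The within-group differences of replicates 1 and 2 correlated at -0.036 between the groups over 28415 probes. That value cannot settle whether the rats were paired. Alternatives covered background correction, scaling, dim probes, probe choice, outlier spots, variance model, a replicate block, each rat left out, the deposited value table and the assignment of members. Matching members under other names was added after seeing the data. The number of arrays limits the precision.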

Additional observations from a re-analysis of the deposited data

How the results depend on the processing

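No member was called under any of the 15 alternatives (lowest adjusted p = 0.476 in limma's test). The chaperone and secretory median stayed positive throughout, from 0.19 to 0.24. Leaving out each rat in turn, the PERK-ATF4-CHOP median ranged from -0.26 to -0.022, the difference between the medians from 0.25 to 0.45, and the count of members above control from 13 to 19. That count was 14 with normexp background correction, 13 with quantile scaling and 15 with members under other names. For the counts with a rat left out, normexp or quantile scaling, the share of all genes above control is not given here. Those counts therefore cannot be set beside the share of the main setting. With the replicate number as a block, the fit called 0 members, so the block changed no call. The medians, 0.20 and -0.082, could not change, since each group holds 1 rat of each replicate number. The count of 11 members above control does not use the fit. The variance model, the replicate block and the filters on dim probes could not alter a member's difference. Pairs with these alternatives kept its sign by design. Of all 405 pairs of a gene and an alternative, 385 kept the sign of the difference and 20 did not. Those that did not were Eif2ak3 with normexp (-0.0017), Syvn1 with the mean of its probes (0.13) or the deposited table (0.0014), and the others with 1 rat left out. Those ranges were -0.26 to 0.34 for Herpud1, -0.20 to 0.25 for Atf4, -0.43 to 0.052 for Ddit3, -0.059 to 0.34 for Erp29, -0.10 to 0.085 for Syvn1, -0.11 to 0.19 for Eif2ak3, -0.083 to 0.31 for Canx, -0.014 to 0.52 for Dnajb11, -0.038 to 0.90 for Sec61a1, -0.92 to 0.16 for Atf6, -0.020 to 0.18 for Hspa5, -0.016 to 0.22 for Ero1l and -0.19 to 0.47 for Ssr3. The cause was not tested. Over the same rats left out, list medians ranged from 0.082 to 0.13 for the other XBP1 and ATF6 targets, 0.051 to 0.12 for cytosolic heat shock, 0.77 to 1.27 for B and plasma cell, -0.042 to 0.30 for goblet cell, -0.069 to 0.54 for Paneth cell and -0.91 to -0.23 for enterocyte genes. All 36 member probes were well above background on all 4 arrays, and the number of rats limits the precision.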

Other observations

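Outside the members, 26 genes held ERSE or ERSE-II in their promoter window, and 15 of them were measured. Of these 9 had a higher and 6 a lower mean in compost rats, 2 lay above and 2 below control, where 12.6% and 15.3% of all genes did so, and the median difference was 0.11, within a range of -0.33 to 0.64. Cdc45, a DNA replication gene chosen here after its values were seen, did not overlap between the groups and differed by 0.19.

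Among the cytosolic heat shock genes, which heat shock factor and not the ER sensors is known to control, Hsp90ab1 measured 6.45 and 6.43 in control and 5.87 and 6.36 in compost rats, a difference of -0.32 ± 0.23. Dnaja4 measured 0.39 and 0.36 in control and 0.49 and 0.93 in compost rats, a difference of 0.33 ± 0.22. In all, 18 of the 22 genes had higher means. None passed limma's test after adjustment (lowest unadjusted p = 0.201, 0 under 0.05).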
